A study of Homo sapiens with 5 samples.

Results

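The 8 troponin genes TNNT1, TNNT2, TNNT3, TNNI1, TNNI2, TNNI3, TNNC1 and TNNC2 were followed in cultures of H1, an established human embryonic stem cell line, after 30 days of differentiation towards heart muscle. They were taken by symbol from the deposited tables, and all 8 were found among 27139 listed genes. Polyadenylated RNA of 5 libraries of wild-type H1 cells was sequenced. In the GiWi group (2 libraries) a GSK3 inhibitor and an inhibitor of Wnt and β-catenin were given, with a labelled treatment time of 48 h. In the YAPi group (3 libraries) a YAP inhibitor and Activin were given, with a labelled time of 24 h, so agents and time differ together. The study asked how cardiomyocytes made by its short YAP inhibitor and Activin treatment compare with those of the GiWi protocol. H1 is 1 line, and the labels do not tell whether each library had its own culture. The p-values below therefore reflect library-to-library spread alone, and that spread may be technical.

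Troponin is the calcium switch of striated muscle. Troponin C binds calcium, troponin I holds the contractile filament off until calcium arrives, and troponin T ties the complex to tropomyosin on the thin filament. Each subunit has isoforms from separate genes: TNNT2 and TNNI3 are the cardiac T and I, TNNT1 and TNNI1 the slow skeletal T and I, TNNT3, TNNI2 and TNNC2 the fast skeletal forms, and TNNC1 serves heart and slow muscle alike. In the fetal heart TNNI1 is the main troponin I, and TNNI3 replaces it around and after birth.

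The libraries held 43661243 to 48904372 exon counts. All 8 listed cardiomyocyte markers were detected in every library, with a summed level of 4152 to 4212 CPM in GiWi and 2921, 3014 and 1307 CPM in YAPi replicates 1, 2 and 3. Of that sum MYH6 was 1879 and 1856 CPM in GiWi and 123, 132 and 49.2 CPM in YAPi. MYH7 went the other way, from 398 and 411 CPM in GiWi to 1110, 1175 and 489 CPM in YAPi. The sum thus depends on MYH6 above all and does not measure the number of heart muscle cells. CPM here means counts scaled to library size and by TMM factors, which correct for differences in composition between libraries. Replicate 3 of YAPi stood apart: log2 CPM correlated with replicates 1 and 2 at 0.976 and 0.977 across genes, against 0.997 between those replicates and within the GiWi pair. In it the 12 genes of a sarcomere reference list (ACTC1, TPM1, TTN and others, no troponin) had a median of -1.23 for log2 CPM minus the mean of replicates 1 and 2, while the median over all tested genes was -0.0020. In the other lists, genes that passed at an edgeR adjusted p under 0.05 were counted. Fibroblast and matrix genes (7 of 7 tested) numbered 5 higher and 2 lower in YAPi, and macrophage genes 7 higher of 7. Endothelial genes numbered 4 higher and 1 lower of 5, epithelial genes 5 higher of 5, and eye and neural genes 5 higher of 5. Smooth muscle genes numbered 2 higher and 3 lower of 7. Over all tested genes 57.1% passed, 30.2% higher and 26.9% lower. Summed macrophage markers were 6.03 and 6.74 CPM in GiWi and 358, 366 and 166 CPM in YAPi, with CD163, C1QB and TYROBP at 0 counts in GiWi. Summed fibroblast and matrix markers were 59612 and 59902 CPM in GiWi and 106234, 108599.9 and 126982 CPM in YAPi. In such bulk RNA, fewer heart muscle cells and less troponin RNA per cell cannot be told apart. For that reason the shares and ratios of troponin genes within each library are given beside their levels. They are free of that mixture only where their genes come from the same cells, which was not tested.

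Of the 7 troponin genes with enough counts to test, only TNNT1 differed between the groups in the comparison of all 5 libraries, and it was lower in YAPi. Among all 17634 genes tested by edgeR's quasi-likelihood test, 57.1% changed at an adjusted p under 0.05, 30.2% higher and 26.9% lower. In 4 of the 7 genes (TNNT1, TNNT2, TNNI1 and TNNI3) all YAPi libraries lay below both GiWi libraries, where 75.8% of all tested genes had groups that did not overlap. TNNC2, with 5.5 to 10.5 counts per library, was not tested.

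**Figure D1:**
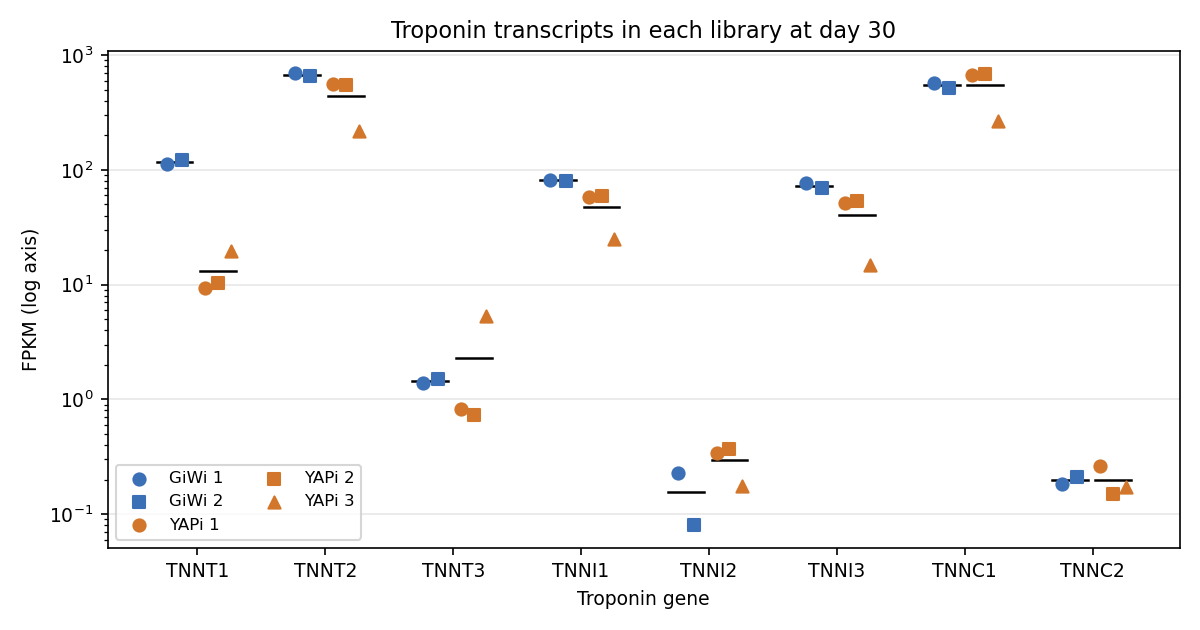
FPKM of each troponin gene (log axis) in the 2 GiWi libraries (blue) and the 3 YAPi libraries (orange), with group means as black bars. TNNT2 and TNNC1 are the most abundant members in every library, TNNT1 lies lower in all YAPi libraries, and TNNT3 is highest in YAPi replicate 3, where TNNT2, TNNI1, TNNI3 and TNNC1 are lowest.

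TNNT1, the slow skeletal troponin T, was the member that fell. Its level was 112 and 123 FPKM in GiWi and 9.27, 10.4 and 19.6 FPKM in YAPi replicates 1, 2 and 3 (FPKM is fragments scaled to transcript length and library size). Both GiWi libraries lay far above every YAPi library, and among the YAPi libraries replicate 3, the lowest in most sarcomere transcripts, was the highest in TNNT1. The means were 117 ± 7.48 FPKM (SD, n = 2) and 13.1 ± 5.65 FPKM (SD, n = 3), an 8.96-fold difference. On TMM-scaled counts the log2 fold change of YAPi against GiWi was -3.03 ± 0.33 (SE, edgeR adjusted p = 9.50e-04), the 193rd lowest of the 17634 tested genes. The call held in every alternative fit, with a log2 fold change from -3.44 to -2.35 and an adjusted p from 3.89e-20 to 0.0138 leaving aside the replicate block.

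TNNT2, the cardiac troponin T and the usual marker protein of cardiomyocytes in culture, was among the most abundant transcripts of every library. It measured 693 and 659.6 FPKM in GiWi, where it ranked 82 and 90 among all genes, and 555, 543 and 217 FPKM in YAPi, where it ranked 114, 114 and 228. The YAPi libraries all lay below GiWi, replicates 1 and 2 narrowly and replicate 3 widely. The log2 fold change was -0.50 ± 0.39 (SE) and did not pass (edgeR adjusted p = 0.316). Without YAPi replicate 3 it was -0.18 ± 0.045, past the threshold (edgeR adjusted p = 0.00148); over the alternatives other than the replicate block the adjusted p ran from 0.00148 to 0.858.

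TNNT3, the fast skeletal troponin T, was a minor transcript whose direction depended on 1 library. It measured 1.38 and 1.503 FPKM in GiWi and 0.824, 0.730 and 5.32 FPKM in YAPi. Replicates 1 and 2 of YAPi lay below GiWi and replicate 3 lay above every other library. These values rest on 98.5 and 107 counts in GiWi and on 57.5, 46.5 and 322 counts in YAPi. Over all libraries the log2 fold change was 0.81 ± 0.93 (SE, edgeR adjusted p = 0.492); without YAPi replicate 3 it was -0.74 ± 0.17 (adjusted p = 6.56e-04), with alternatives from 6.56e-04 to 0.955 leaving aside the replicate block.

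Within the summed troponin T RNA, the part of TNNT1 beside TNNT2 was thus lower in the YAPi libraries. Whether both genes were expressed in the same cells was not tested, so this share need not be a choice of isoform within a cell. TNNT1 made up 13.9 and 15.6% of the summed FPKM of the 3 troponin T genes in GiWi and 1.64, 1.88 and 8.09% in YAPi. The groups did not overlap, but replicate 3 of YAPi lay about midway between them. The difference of the means was -10.9 percentage points (exact two-sided permutation p = 0.1, the smallest that the 10 splits of 2 and 3 libraries allow). TNNT2 made up 85.9 and 84.2% in GiWi and 98.2, 98.0 and 89.7% in YAPi (exact permutation p = 0.2). TNNT3 stayed at 0.171 and 0.192% in GiWi and 0.146 and 0.132% in YAPi replicates 1 and 2, and reached 2.20% in replicate 3. In counts that share was 2.26% with a 95% Wilson interval of 2.02 to 2.51%, against 0.151% (0.117 to 0.196%) in YAPi replicate 1; such intervals cover counting error only. Over the 19 shares and ratios computed, the smallest Benjamini-Hochberg adjusted value was 0.317, so none passed.

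**Figure D2:**
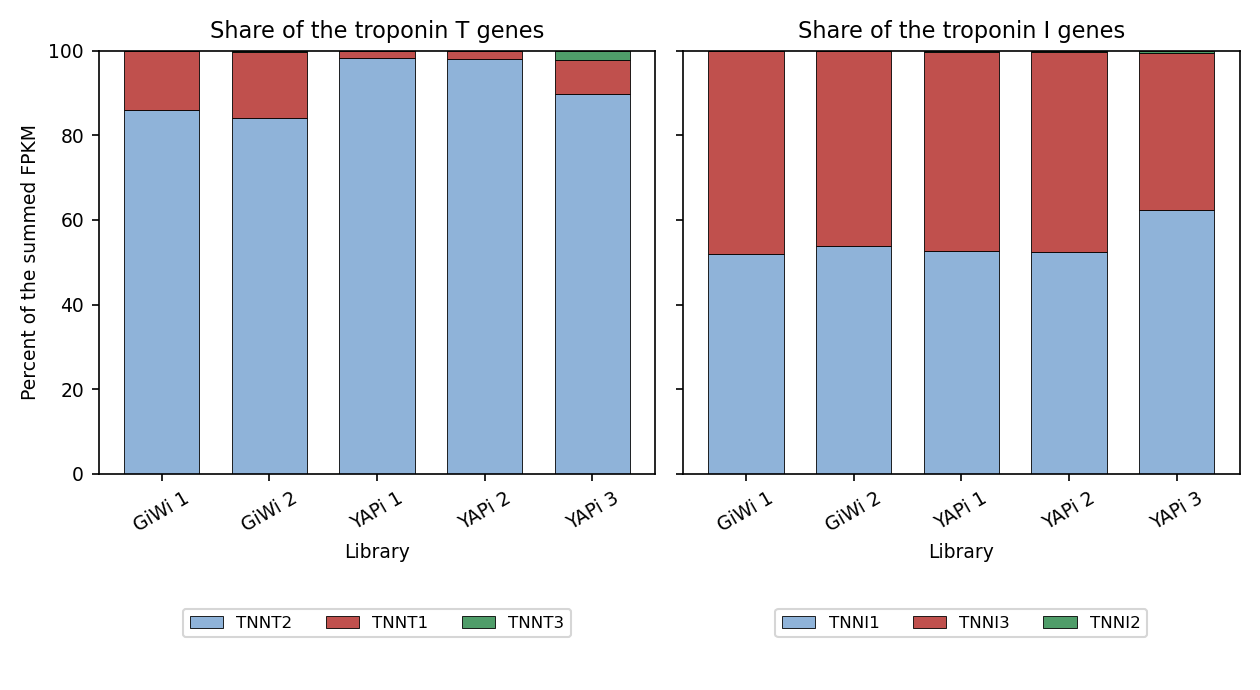
Share of each gene in the summed FPKM of the troponin T genes (left) and of the troponin I genes (right), in percent, 1 bar per library. TNNT1 takes 13.9 and 15.6% of troponin T in GiWi and 1.64 to 8.09% in YAPi, while the split between TNNI1 and TNNI3 is alike in GiWi and in YAPi replicates 1 and 2.

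Genes with the profile most like that of TNNT1 over the 5 libraries were not sarcomere genes. The measure was the root mean square difference of centred log2 CPM, over 9749 genes with a mean of at least 10 CPM. The closest was NGFR (0.0765), the low-affinity nerve growth factor receptor, at 50.6 and 53.4 CPM in GiWi and 4.70, 5.36 and 10.9 CPM in YAPi. FBN3 (0.1101), a fibrillin, and COL6A6 (0.125), a collagen VI chain, followed. For TNNT2 the closest were CORIN (0.0413), the protease that activates natriuretic peptides, MYL7 (0.0472), the atrial light chain, and TRDN (0.0502), triadin of the calcium release unit. These values describe 5 libraries and no more.

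TNNT1 and TNNI3 are close neighbours. In hg19 the transcripts listed in the files place TNNT1 on chromosome 19 from 55644066 to 55660722 and TNNI3 from 55663136 to 55669100, both on the minus strand with 2414 bases between them. The listed TNNT2 transcript lies on chromosome 1 from 201328136 to 201346828 and TNNI1 from 201372895 to 201390874, also both on the minus strand, with LAD1, an anchoring filament protein of epithelia, between them. TNNI2 (chromosome 11, 1860233 to 1862910) and TNNT3 (1940799 to 1959936) lie on the plus strand, TNNC1 on chromosome 3 (52485107 to 52488057, minus strand) and TNNC2 on chromosome 20 (44451855 to 44455953, minus strand). No other listed gene overlaps a member. The adjoining pair on chromosome 19 parted in these data: in YAPi replicate 3, against the mean of replicates 1 and 2, TNNT1 was higher by 1.00 on the log2 scale and TNNI3 lower (-1.81). The pair on chromosome 1 moved alike, TNNT2 by -1.33 and TNNI1 by -1.22, whereas LAD1 between them differed by 0.023 there and rose in YAPi overall (log2 fold change 2.28, edgeR adjusted p = 3.92e-05).

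The sequence just upstream of the start is shown for the 3 members that the promoter table holds, since they are the TNNT1 and TNNI3 neighbours that parted and the cardiac TNNT2; the other members, TNNT3, TNNI1, TNNI2, TNNC1 and TNNC2, were not matched. Each run is the 250 bases before the RefSeq gene start in GRCh38.p14, minus strand, read 5′ to 3′. That start need not be the start of the transcript listed in hg19. Capitals mark matches, on either strand, to the MCAT core CATTCC, which TEAD factors, the DNA-binding partners of YAP, recognise, to the GATA core GATAA, or to the TATA box TATAAA; the CArG and MEF2 boxes were searched by name and had no match in these windows.
TNNT1, chr19:55149207-55149456: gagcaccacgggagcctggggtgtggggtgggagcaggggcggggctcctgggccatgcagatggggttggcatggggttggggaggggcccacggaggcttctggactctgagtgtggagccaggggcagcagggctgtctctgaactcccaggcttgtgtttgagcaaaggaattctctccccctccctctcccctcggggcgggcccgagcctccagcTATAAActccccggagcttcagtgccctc
TNNI3, chr19:55157733-55157982: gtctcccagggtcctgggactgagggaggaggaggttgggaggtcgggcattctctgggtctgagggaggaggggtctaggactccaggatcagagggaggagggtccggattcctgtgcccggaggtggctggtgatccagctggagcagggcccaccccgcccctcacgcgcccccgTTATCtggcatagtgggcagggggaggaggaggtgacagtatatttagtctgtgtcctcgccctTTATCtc
TNNT2, chr1:201377681-201377930: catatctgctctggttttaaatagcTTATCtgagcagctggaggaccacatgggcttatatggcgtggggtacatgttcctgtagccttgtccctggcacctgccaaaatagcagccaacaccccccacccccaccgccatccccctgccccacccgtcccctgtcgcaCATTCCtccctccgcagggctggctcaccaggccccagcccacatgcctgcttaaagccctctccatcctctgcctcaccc
The TNNT1 window held a TATA box 29 bases before the start and neither an MCAT nor a GATA core. The TNNI3 window held 2 GATA cores, beginning 71 and 7 bases before the start, both on the opposite strand. The TNNT2 window held an MCAT core 81 bases before the start and a GATA core at 225, the latter on the opposite strand. Of 35116 windows of the same length, 11.9% held the MCAT core, 20.4% the GATA core and 10.7% the TATA box, 1.16% the CArG box and 2.80% the MEF2 box, so such matches are common. They are descriptions of letters and say nothing of binding here.

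TNNI1, the slow skeletal and fetal troponin I, measured 82.3 and 80.7 FPKM in GiWi and 57.5, 59.4 and 24.9 FPKM in YAPi. Each YAPi library lay below both GiWi libraries, with replicate 3 far below the other two. The log2 fold change of -0.64 ± 0.36 (SE) did not pass (edgeR adjusted p = 0.177). Without YAPi replicate 3 it was -0.34 ± 0.046 and passed (edgeR adjusted p = 1.17e-06), as it did with sample weights in limma-voom (adjusted p = 0.0323); over the alternatives other than the replicate block the adjusted p ran from 1.17e-06 to 0.795.

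TNNI3, the cardiac troponin I whose N-terminal extension is phosphorylated by protein kinase A, showed the same order. It measured 76.1 and 69.5 FPKM in GiWi and 51.5, 53.6 and 14.9 FPKM in YAPi. The groups did not overlap, and replicate 3 was 3.51-fold below the mean of replicates 1 and 2 in CPM, a wider gap than the 2.52-fold of TNNT2, the 2.54-fold of TNNC1 and the 2.33-fold of TNNI1. The log2 fold change was -0.72 ± 0.51 (SE, edgeR adjusted p = 0.269), and without replicate 3 it was -0.33 ± 0.053 (adjusted p = 1.09e-05, in a range of 1.09e-05 to 0.707 over the alternatives other than the replicate block). The profiles closest to TNNI3 were FITM1 (0.109), a lipid droplet protein of muscle, CORO6 (0.153), a coronin, and CCDC141 (0.166). Those closest to TNNI1 were ADCY5 (0.0638), a cardiac adenylyl cyclase, MYL7 (0.0651) and TNNT2 itself (0.0793).

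TNNI2, the fast skeletal troponin I, was barely detected, with 10 and 3.5 counts in GiWi and 14.5, 14.5 and 6.5 counts in YAPi. That is 0.229 and 0.0800 FPKM against 0.339, 0.372 and 0.175 FPKM, and the groups overlap. Its log2 fold change was 0.96 ± 0.55 (SE, edgeR adjusted p = 0.189). It passed without YAPi replicate 3 (1.22 ± 0.46, adjusted p = 0.0216), in a range of 0.0211 to 0.610 over the alternatives other than the replicate block. The profiles least unlike it were JAK2 (0.242), ANKRD1 (0.250) and XPO4 (0.260), over 9750 genes.

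The balance of cardiac and slow skeletal troponin I was alike in 4 of the 5 libraries. TNNI3 made up 48.0 and 46.2% of the summed FPKM of the troponin I genes in GiWi, 47.1 and 47.3% in YAPi replicates 1 and 2, and 37.3% in replicate 3. Replicates 1 and 2 lay between the GiWi libraries and replicate 3 below all others. The group means of 47.1 ± 1.25% (SD, n = 2) and 43.9 ± 5.71% (SD, n = 3) did not differ beyond that spread (exact two-sided permutation p = 0.8). The level of this share and the size of its difference depend on the transcript length assumed for TNNI1. The direction of the difference and the exact permutation p of 0.8 did not. The files list a transcript of 6133 bases, whereas coding transcripts of TNNI1 in GENCODE v29 run from 565 to 6142 bases with a median of 1100 bases. With the median GENCODE length of each gene, TNNI3 made up 16.4 ± 0.698% of troponin I in GiWi and 14.8 ± 2.80% in YAPi, and in raw counts 10.6 ± 0.485 and 9.59 ± 1.91%.

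TNNC1, the troponin C of heart and slow muscle, ranked with TNNT2 among the most abundant transcripts, at ranks 95 to 191 over the libraries. It measured 569.7 and 519.7 FPKM in GiWi and 675, 690.3 and 268 FPKM in YAPi. Replicates 1 and 2 of YAPi lay above both GiWi libraries and replicate 3 below both. The log2 fold change was 0.14 ± 0.40 (SE, edgeR adjusted p = 0.782). It turned to -0.044 with scaling by library size alone and to -0.12 on log2(FPKM + 1), neither past the threshold. Without YAPi replicate 3 it was 0.47 ± 0.048 and passed (edgeR adjusted p = 1.85e-08), as it did with sample weights (adjusted p = 0.0292); over the alternatives other than the replicate block the adjusted p ran from 1.85e-08 to 0.965. The closest profiles were FABP3 (0.0356), the heart fatty acid binding protein, MB (0.0368), myoglobin, and APOBEC2 (0.0530), a muscle protein.

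Relative to TNNT2, TNNC1 was higher in all 3 YAPi libraries, and here replicate 3 did not stand apart. The FPKM of TNNC1 divided by that of TNNT2 was 0.822 and 0.788 in GiWi and 1.22, 1.27 and 1.23 in YAPi. The groups were far apart for their spread, with means of 0.805 ± 0.0239 (SD, n = 2) and 1.24 ± 0.0278 (SD, n = 3), a 1.54-fold difference. The exact two-sided permutation p was 0.1, the smallest possible, and the Benjamini-Hochberg value over the 19 shares and ratios was 0.317. Replicate 3 had 2.52-fold less TNNT2 and 2.54-fold less TNNC1 than the mean of replicates 1 and 2, so their ratio there was kept. Counts in place of FPKM gave 0.478 ± 0.0140 and 0.746 ± 0.0166, a 1.56-fold difference. This single ratio was looked at after the values had been seen, and its size is a description.

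Against TNNI1 the same held: the TNNC1 to TNNI1 ratio of FPKM was 6.93 and 6.44 in GiWi and 11.7, 11.6 and 10.8 in YAPi (1.70-fold, exact permutation p = 0.1). The ratio of TNNI1 to TNNT2 moved little, from 0.119 and 0.122 in GiWi to 0.104, 0.109 and 0.115 in YAPi (exact permutation p = 0.2). That of TNNI3 to TNNT2 was 0.1098 and 0.105 in GiWi and 0.0928, 0.0987 and 0.0688 in YAPi (exact permutation p = 0.2), lowest in replicate 3. Summed over isoforms, troponin C to troponin T was 0.706 and 0.663 in GiWi and 1.19, 1.25 and 1.11 in YAPi, a difference of 0.79 on the log2 scale (exact permutation p = 0.1). Troponin I to troponin T was 0.197 and 0.192 against 0.193, 0.204 and 0.165, with overlapping groups (exact permutation p = 0.9). These absolute ratios carry the listed transcript lengths, TNNI1 above all, and are compared between libraries only.

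**Figure D3:**
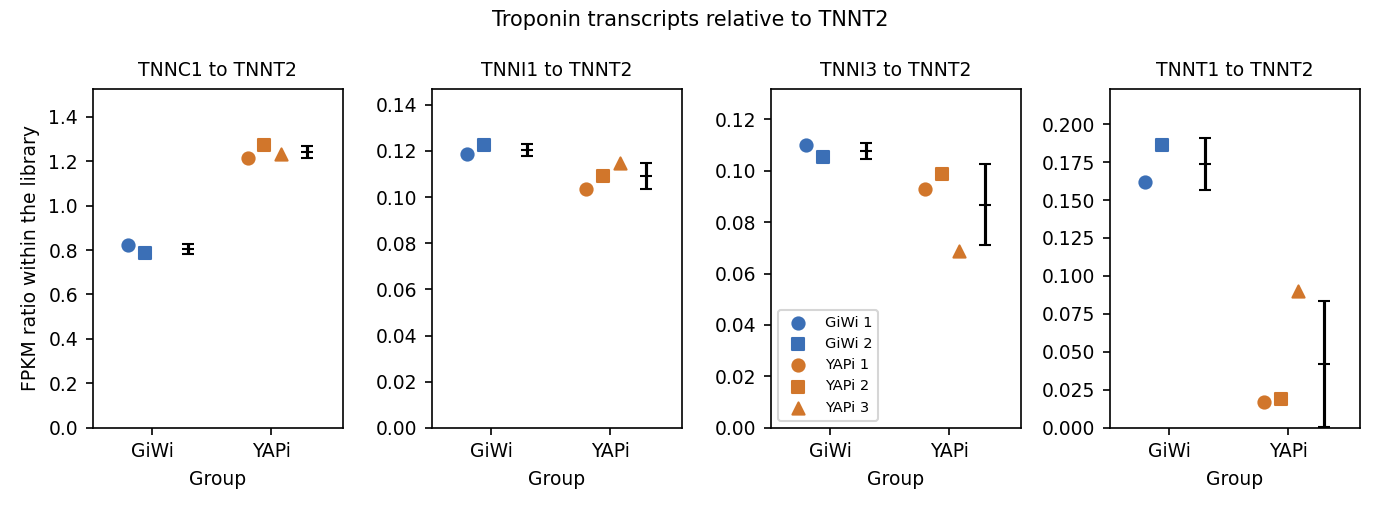
FPKM of TNNC1, TNNI1, TNNI3 and TNNT1 divided by that of TNNT2 in the same library (points), with group means and SD (black). TNNC1 to TNNT2 is 0.788 to 0.822 in GiWi and 1.22 to 1.27 in YAPi; TNNT1 to TNNT2 is 0.162 to 0.186 in GiWi and 0.0167 to 0.0902 in YAPi.

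TNNC2, the fast skeletal troponin C, was close to the limit of detection in both groups. It had 7.5 and 8.5 counts in GiWi and 10.5, 5.5 and 6 counts in YAPi, or 0.151 to 0.264 FPKM over all libraries. TNNC1 accounted for 99.94 to 99.98% of troponin C in every library.

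Measured against other sarcomere transcripts, TNNT1 was again the member that fell. When libraries were scaled to the mean of the 12 sarcomere reference genes, 16.3% of all genes passed in edgeR (13.8% higher, 2.48% lower) and the median gene lay at a log2 fold change of 0.48. On this scale TNNT2 was at -0.26 ± 0.63, TNNI1 at -0.38 ± 0.64, TNNI3 at -0.54 ± 0.62 and TNNC1 at 0.39 ± 0.65 (log2 fold change ± SE), and none of them passed. Each of these values was smaller than its standard error. On this scale that error was alike for every tested member, from 0.62 for TNNI3 to 0.70 for TNNI2. It therefore says little of the library-to-library spread of a single gene. The ratio of TNNC1 to TNNT2 within each library, given above, does not depend on this scaling. TNNT1 was lower (-2.35 ± 0.65, edgeR adjusted p = 0.00248), and TNNT3 was higher (1.76 ± 0.63, edgeR adjusted p = 0.0367), a value that rests on YAPi replicate 3.

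**Figure D4:**
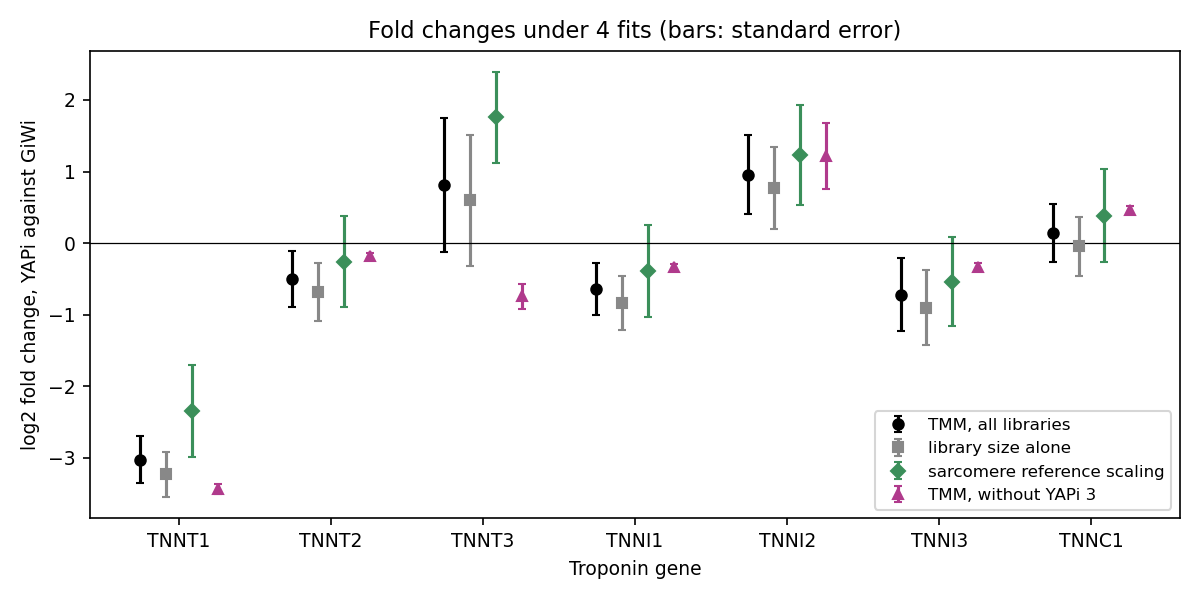
Log2 fold change of YAPi against GiWi with its standard error for the 7 tested troponin genes under 4 edgeR fits. TNNT1 lies between -3.44 and -2.35 in all of them, whereas TNNT3 is at 0.81 with all libraries and at -0.74 without YAPi replicate 3.

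Without YAPi replicate 3 all 7 tested troponin genes passed in edgeR, TNNT1, TNNT2, TNNT3, TNNI1 and TNNI3 lower and TNNI2 and TNNC1 higher. In that comparison 74.9% of all genes passed, 38.4% higher and 36.5% lower, so the count is near the background. Replicate 3 differed from the others in either direction, by member. Against the mean of replicates 1 and 2, log2 CPM of TNNT2, TNNI1, TNNI3 and TNNC1 differed by -1.22 to -1.81, beside medians of -1.23 for the sarcomere reference list and -1.31 for the macrophage list; the part of macrophages in these values was not tested. TNNT1 was higher by 1.00 and TNNT3 by 2.74, the 84th highest value of all tested genes, and TNNI2, at 6.5 counts there, differed by -0.90.

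**Figure D5:**
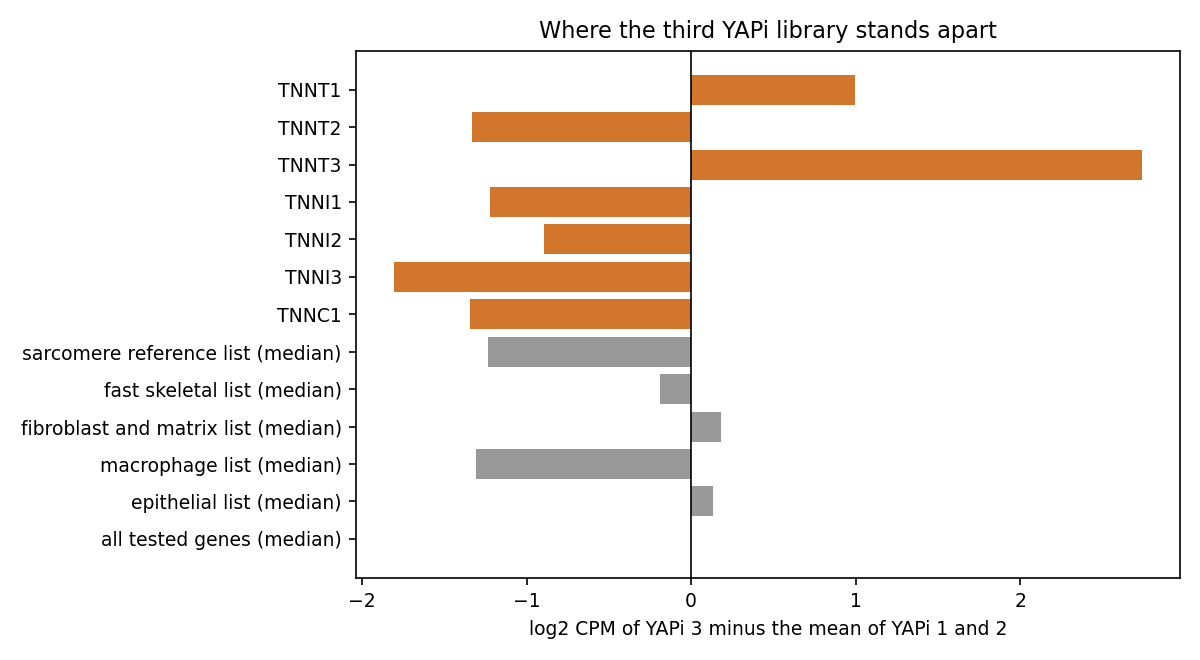
Log2 CPM of YAPi replicate 3 minus the mean of YAPi replicates 1 and 2 for the 7 tested troponin genes (orange) and the medians of gene lists (grey). TNNT3 (2.74) and TNNT1 (1.00) lie to the right. TNNC1 (-1.34), TNNT2 (-1.33) and TNNI1 (-1.22) lie near the median of the sarcomere reference list (-1.23). TNNI3 (-1.81) lies further to the left, and TNNI2 is at -0.90.

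Other fast skeletal muscle genes went both ways in replicate 3. Of the 13 tested genes of that list 5 were higher and 8 lower there than the mean of replicates 1 and 2, with a median of -0.19 on the log2 scale. Their summed level of 117 and 122 CPM in GiWi and 55.3, 55.6 and 21.1 CPM in YAPi is mostly CKM, the muscle creatine kinase that heart also expresses, at 94.2 and 99.4 CPM in GiWi and 41.1, 40.3 and 11.8 CPM in YAPi. MYBPC2, the fast myosin binding protein C, was at 0.0850, 0.118 and 0.247 CPM in the YAPi replicates and PVALB, parvalbumin, at 0.255, 0.306 and 0.396 CPM, both highest in replicate 3 and below GiWi. MYL1, a fast skeletal light chain, was at 1.06, 1.13 and 1.09 CPM in the YAPi replicates. MYOD1, the master regulator of skeletal muscle, did not exceed 0.0773 CPM in any library, and MYF5 was at 0 counts in all. MYH2, a fast myosin, was higher in replicate 3 (0.569 CPM) than in replicates 1 and 2 (0.0425 and 0.0940 CPM), but as high in GiWi (0.523 and 0.734 CPM). The genes closest to the TNNT3 profile, though far less close than those of TNNT2, were SDC1 (0.380), a cell surface proteoglycan of epithelia, UPK1B (0.504), a uroplakin, and CXCL14 (0.577), a chemokine. SDC1 measured 31.8 and 33.8 CPM in GiWi and 28.8, 28.2 and 95.7 CPM in YAPi. Of the epithelial markers, KRT19 was at 284, 295 and 534 CPM in the YAPi replicates and EPCAM at 211, 205 and 111 CPM; the part of epithelial cells in the TNNT3 value was not tested.

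Of the 16 fast skeletal genes 13 could be tested, of which 1 rose in YAPi, 5 fell and 7 did not pass, at a median log2 fold change of -0.87 against 0.01 for all tested genes. Over all genes 57.1% passed, 30.2% higher and 26.9% lower, and without YAPi replicate 3 74.9% passed, which the counts of the fast and slow muscle lists do not clearly exceed. PVALB, the calcium buffer parvalbumin, fell from 2.83 ± 0.0969 CPM (SD, n = 2) in GiWi to 0.319 ± 0.0712 CPM (SD, n = 3) in YAPi, with an edgeR log2 fold change of -3.15 ± 0.24 (SE, adjusted p = 2.95e-04). ACTN3, the fast fibre actinin, fell from 2.14 ± 0.0812 to 0.128 ± 0.0592 CPM, and MYBPC2, the fast myosin binding protein C, from 2.10 ± 0.173 to 0.150 ± 0.0859 CPM. MYL1 was the gene that rose, from 0.114 ± 0.00282 to 1.09 ± 0.0331 CPM. Without YAPi replicate 3, 2 rose and 8 fell, and with the sarcomere reference scaling 2 rose and 3 fell. Of the 8 slow muscle genes 7 could be tested, and MYH7, MYL2 and TPM3 rose, ATP2A2 fell and 3 did not pass; 5 rose without replicate 3, and with the sarcomere reference scaling 1 rose and none fell. TPM3, slow tropomyosin, had 189 ± 4.70 CPM in GiWi and 259 ± 9.06 CPM in YAPi, and rose by 0.45 ± 0.057 on the log2 scale (edgeR adjusted p = 0.00157). Of the 10 genes of skeletal muscle determination and its acetylcholine receptors, 4 could be tested: CHRNA1 rose, CHRND and CHRNG fell, and MYOG, at 0.578 ± 0.0528 and 0.349 ± 0.131 CPM, did not pass.

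Among the partners of troponin on the thin filament, TPM2 and TPM3 rose in YAPi, and TPM1 and ACTC1 did not pass. Of 12 listed genes 11 could be tested, and 5 rose, 1 fell and 5 did not pass, at a median log2 fold change of 0.15. Over all tested genes 57.1% passed, 30.2% higher and 26.9% lower, and 74.9% passed without YAPi replicate 3, so the calls on the thin and thick filament lists are near the background. TPM2, beta tropomyosin, was at 366 ± 24.6 CPM in GiWi and 492 ± 27.9 CPM in YAPi, a rise of 0.43 ± 0.075 on the log2 scale (edgeR adjusted p = 0.00533). ACTA1, skeletal alpha actin, rose from 6.05 ± 0.271 to 11.9 ± 1.64 CPM. TMOD1, which caps the pointed end of the filament, fell by 1.49 ± 0.31 on the log2 scale (edgeR adjusted p = 0.00942). TPM1 and ACTC1, the main cardiac tropomyosin and actin, were at 1416 ± 17.7 and 1173 ± 16.03 CPM in GiWi and 1198 ± 217 and 876 ± 226 CPM in YAPi and did not pass. Without YAPi replicate 3, 6 rose and 3 fell, and with the sarcomere reference scaling 1 rose and none fell. Of 12 thick filament genes 3 rose, 3 fell and 6 did not pass, among them MYOM3 (0.134 ± 0.0839 to 9.05 ± 2.13 CPM) and MYBPHL (6.65 ± 0.379 to 0.264 ± 0.125 CPM), an atrial relative of myosin binding protein C; without replicate 3, 4 rose and 5 fell. Of the 12 reference genes TCAP fell and 11 did not pass; without replicate 3, 4 rose and 3 fell. Of the 8 cardiomyocyte markers MYH7 rose, MYH6 and RYR2 fell and 5 did not pass, and 5 fell without replicate 3.

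Among transcription factors that act on troponin and other muscle genes, GATA4 and TBX5 fell in YAPi. Of 15 listed factors 10 fell, where 26.9% of all tested genes fell, at a median log2 fold change of -0.43 against 0.01. When YAPi replicate 3 was left out, 12 fell, beside 36.5% of all genes. With the sarcomere reference scaling 1 fell, beside 2.48% of all genes, and the median was -0.034 against 0.48. GATA4 was at 213 and 229 CPM in GiWi and 72.1, 73.2 and 54.6 CPM in YAPi, and TBX5 at 83.0 and 84.4 against 7.01, 7.57 and 3.46 CPM. TEAD3, a partner of YAP, had 115 ± 2.67 CPM in GiWi and 63.4 ± 6.53 CPM in YAPi and fell by 0.86 ± 0.092 on the log2 scale (edgeR adjusted p = 8.98e-04), and TEAD2 and TEAD4 fell too, while TEAD1, at 142 ± 3.90 and 138 ± 12.2 CPM, did not pass.

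Of 12 listed kinases and phosphatases that can act on troponin I and T, 2 rose, 3 fell and 7 did not pass, at a median log2 fold change of 0.08. Over all genes 57.1% passed, and a list of 12 genes does not clearly depart from that share. Leaving out YAPi replicate 3, 6 rose and 3 fell, near the 74.9% of all genes. With the sarcomere reference scaling none of the 12 passed, beside 16.3% of all genes. PRKG1, the cGMP-dependent kinase, had 39.97 ± 3.31 CPM in GiWi and 14.6 ± 1.46 CPM in YAPi and fell by 1.45 ± 0.10 on the log2 scale (edgeR adjusted p = 2.39e-04). PRKD1, protein kinase D1, fell from 34.4 ± 0.502 to 23.0 ± 2.34 CPM, and PRKACA, a catalytic subunit of protein kinase A, was the other gene that fell. PRKCD and PRKCE, isoforms of protein kinase C, rose from 16.03 ± 0.155 to 28.1 ± 1.02 CPM and from 16.6 ± 0.958 to 21.9 ± 1.24 CPM. TNNI3K, a heart kinase found as a partner of cardiac troponin I, was at 10.6 and 10.2 CPM in GiWi and 23.9, 23.4 and 7.76 CPM in YAPi, higher in replicates 1 and 2 and lowest in replicate 3, and did not pass.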

How the data were processed

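Per the labels' protocols, 5 libraries of polyadenylated RNA were made with a kit that keeps strand. Per the submitters' processing notes, STAR 2.5.1, edgeR 3.16.1, FastQC 0.11.5 and HOMER were used with hg19; no role or order is recorded. The deposited exon counts per gene are treated like an expected count, since all values are multiples of 0.5 and 34.6% are not whole; they were rounded before testing. The FPKM values were deposited by the authors in a second table, which lists another transcript for 27.2% of genes, TNNT1 and TNNT2 among them. Whether strand was used in counting is not stated in the sources used here, and gene counts do not separate splice forms.

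Levels and shares were taken from FPKM, differences from counts. Counts were tested with edgeR 4.0.16 (R 4.3.3), by its quasi-likelihood method, after TMM scaling, filterByExpr with a minimum count of 10 and a minimum total of 15, and Benjamini-Hochberg adjustment over all 17634 genes at 0.05. Standard errors are the log2 fold change divided by the root of F. Shares and ratios were compared by an exact permutation test over libraries. Alternatives were other scalings (RLE, library size, sarcomere reference), filters and tools (DESeq2 1.42.0, limma 3.58.1 with voom weights or log2 FPKM), each library left out, replicates 1 and 2 of YAPi combined, and a replicate block. The members, lists and tests were chosen with earlier results of these data known; the 9 ratios between single genes, the GENCODE lengths, the motifs and the comparisons of lists without YAPi replicate 3 were chosen after seeing the data.

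Named genes are all members, up to 4 genes of each list with the smallest p, those a small count refers to, and the 3 closest profiles of each tested member (log2 CPM with prior count 2), leaving out LOC, LINC, open reading frame, KIAA and antisense symbols; MYOD1, MYF5, MYH2, KRT19, LAD1, TNNI3K and the other list genes described were added after their values were seen. Replicates differed by more than sampling noise (chi-square per degree of freedom 2.13 to 53.5 over genes reaching 20 counts in a pair). The edgeR step was tested on simulated data. Figures were drawn with matplotlib 3.10.9. Upstream sequences are from RefSeq (GRCh38.p14), and no coordinates were converted between builds. 1 listed gene is not reported here.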

Additional observations from a re-analysis of the deposited data

How the results depend on the processing

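The fall of TNNT1 kept its direction and its call in every alternative run. The number of changed genes was 10065 of 17634, 2878 with the sarcomere reference scaling, and 5909 to 13115 with 1 library left out. The share of calls that were higher was 52.9%, against 35.8% with library size alone, 84.8% with the sarcomere reference scaling 38.0% on log2(FPKM + 1) and 39.7% with 0.1 added instead. Library size alone put the median gene at a log2 fold change of -0.18, against 0.01. With 1 library left out, log2 fold changes ran from -0.69 to -0.18 for TNNT2, -0.74 to 1.24 for TNNT3, -0.84 to -0.34 for TNNI1, 0.47 to 1.71 for TNNI2, -0.99 to -0.33 for TNNI3 and -0.066 to 0.47 for TNNC1; a lone GiWi library was assumed to vary like the others. Leaving out YAPi replicate 3 gave these 6 genes a call, each with a smaller standard error, as from 0.39 to 0.045 for TNNT2. TNNT2, TNNI1 and TNNI3 then lay closer to no change, TNNI2 and TNNC1 further from it, and TNNT3 reversed. The cause of the spread was not tested. With sample weights, which gave that replicate a weight of 0.154, TNNT3 turned to -0.67 and TNNI1 (-0.38), TNNI2 (1.29) and TNNC1 (0.43) passed. The uncalled TNNC1 value turned to -0.044 with library size alone, -0.12 on log2(FPKM + 1), -0.12 with 0.1 added instead, and -0.043 with YAPi replicates 1 and 2 summed. TNNT3 reached 1.76 with the sarcomere reference scaling. The difference in the share of TNNI2 was 0.260 percentage points, 0.0483 from counts, 0.336 with 0.1 FPKM added and 0.0712 with GENCODE lengths. Alternative values were labelled for the troponin fold changes, the shares, the ratios and the count of changed genes. Of the fold changes, 9 reversed and 14 newly passed the threshold with their sign kept. Among shares, ratios and the count, 6 moved by more than their limit (the larger group SD, or 1.5 times for a count). The remaining 293 values were labelled the same. Reversal was not looked for in shares and ratios, so a change of sign within that SD is among the 293. The TNNT3 share without YAPi replicate 3 is such a case.

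Whether the replicate number marks pairing could not be decided. Deviations from the group means correlated at 0.0508 for replicate 1 and -0.0303 for replicate 2. The 2 GiWi libraries deviate by equal and opposite amounts, and YAPi replicate 3 sets much of the YAPi deviations, so opposite signs carry no information. With that number as a replicate block, YAPi replicate 3 has no partner and drops out, 13576 genes passed, and TNNT2 (-0.18), TNNT3 (-0.74), TNNI1 (-0.34), TNNI2 (1.21), TNNI3 (-0.33) and TNNC1 (0.47) did as well. The depth limits TNNI2 and TNNC2, at 3.5 to 14.5 counts per library. The 2 and 3 libraries allow no permutation p under 0.1.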
